A study of Mus musculus with 2 samples.

Results

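The genes described here build and power the axoneme, the microtubule core of the sperm tail and of motile cilia. They are the protein-coding genes whose names begin with Dnah, Dnai, Dnal, Dnali, Dnaaf, Rsph, Drc or Cfap followed by a digit. Of the 43346 genes in the tables, 21474 of them protein-coding, 63 fitted this rule. They were 15 dynein heavy chain genes (Dnah), 3 light chain genes (Dnal and Dnali), 4 assembly factor genes (Dnaaf), 8 radial spoke genes (Rsph), 3 genes of the nexin-dynein regulatory complex (Drc) and 30 Cfap genes. A further gene of the annotation that fits the rule, Cfap99, was not analysed here, and no gene in the annotation is named Dnai with a digit.

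Polyadenylated RNA was sequenced from the whole testis of 1 adult male C57BL/6J mouse aged 10 weeks. This RNA was read in 2 technical replicate libraries of the same biological replicate, of which replicate 2 was made later, in 2015. Neither library comes from a mutant or treated animal, so there is 1 group and no condition to compare. The rounded expected counts over genes summed to 20675521 in replicate 2 and 31995370 in replicate 1. Every difference between the libraries is therefore a difference between 2 readings of 1 animal, and no value has a replicate across animals. The libraries differed widely, in step with the GC content of transcripts, so each level is given for both. In whole tissue, fewer cells of a type and less RNA per cell cannot be told apart.

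An axoneme has a ring of doublet microtubules around a central pair. Outer and inner dynein arms on each doublet walk along the next one, and each arm holds heavy chains, which carry the motor, with smaller chains attached. Arms are assembled in the cytoplasm with the help of assembly factors before they enter the tail. Radial spokes reach from the doublets to the central apparatus and pass signals to the arms, and the nexin-dynein regulatory complex links neighbouring doublets and holds back their sliding. Cfap, for cilia and flagella associated protein, is a name given to many unrelated proteins found on or inside these structures. In the testis the tail is built in spermatids, the haploid cells that follow meiosis.

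The labelled tissue was checked against lists of cell type markers. All 6 markers of elongating spermatids were detected at 1 TPM (a transcript level scaled for length and depth that sums to the same total in each library) or more in both libraries. Their TPM summed to 50352 in replicate 2 and 9139 in replicate 1, and the 5 spermatocyte markers summed to 5932 TPM in replicate 2 and 5846 TPM in replicate 1. Of 13 markers of multiciliated epithelium, which also makes axonemes, 1 was detected in both libraries, Deup1, at 217 TPM in replicate 2 and 330 TPM in replicate 1. The summed level of all 13 was 274 TPM in replicate 2 and 332 TPM in replicate 1. Foxj1, a transcription factor of ciliated cells that spermatids also use, stood at 52.68 TPM in replicate 2 and 0.59 TPM in replicate 1. Mcidas and Sntn were at or below 0.09 TPM in both, and Scgb1a1 and Scgb3a2 were listed at 0 in both. Epididymis markers summed to 21.1 TPM in replicate 2 and 57.8 TPM in replicate 1, most of it from Crisp1. Round spermatid markers summed to 1510 TPM in replicate 2 and 1979 TPM in replicate 1, and Sertoli cell markers to 1100 TPM in replicate 2 and 895 TPM in replicate 1. Leydig cell markers summed to 2022 TPM in replicate 2 and 434 TPM in replicate 1. Of these, Insl3 had 1630 TPM in replicate 2 and 83.2 TPM in replicate 1. The other Leydig cell markers were close, with Cyp17a1 at 242 TPM in replicate 2 and 225 TPM in replicate 1. Hsd3b6 had 121 and 97.8 TPM, and Star 28.6 and 27.4 TPM, in the same order. Macrophage markers summed to 34.5 TPM in replicate 2 and 4.80 TPM in replicate 1, and red blood cell markers to 205 TPM in replicate 2 and 26.7 TPM in replicate 1. Spermatogonium markers summed to 57.5 TPM in replicate 2 and 82.4 TPM in replicate 1, so the lists did not all differ in the same direction.

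Nearly all members were transcribed in this testis. A level of 1 TPM or more in both libraries was reached by 57 of the 63 members (90.5%), against 54.6% of all protein-coding genes. The median member stood at 71.0 TPM in replicate 2 and 44.5 TPM in replicate 1, while the median protein-coding gene stood at 4.6 TPM in replicate 2 and 1.89 TPM in replicate 1. That placed the median member at percentile 87.6 of protein-coding genes in replicate 2 and at percentile 85.8 in replicate 1. The members below the limit in at least 1 library were Dnah5, Dnah9, Dnah11, Rsph4a, Cfap73 and Cfap97d2, each described below. Together the 63 members made up 0.795% of the summed TPM of replicate 2 and 0.7497% of that of replicate 1.

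The order of the subfamilies by median level was not the same in both libraries. In replicate 2 the radial spoke genes came first with a median of 158 TPM, followed by light chains with 97.3 TPM and Cfap genes with 93.8 TPM. The Drc genes followed at 73.9 TPM, the assembly factors at 48.9 TPM and the heavy chains at 29.5 TPM. In replicate 1 the Cfap genes came first with 73.4 TPM, followed by light chains with 43.3 TPM, radial spoke genes with 35.4 TPM, Drc genes with 24.7 TPM, heavy chains with 21.6 TPM and assembly factors with 13.0 TPM. Radial spoke and Cfap genes thus changed places between the libraries, and so did heavy chains and assembly factors. Within a subfamily the range was wide, and Cfap genes alone ran from 1.09 to 712 TPM in replicate 2 and from 0 to 1885 TPM in replicate 1.

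**Figure D1:**
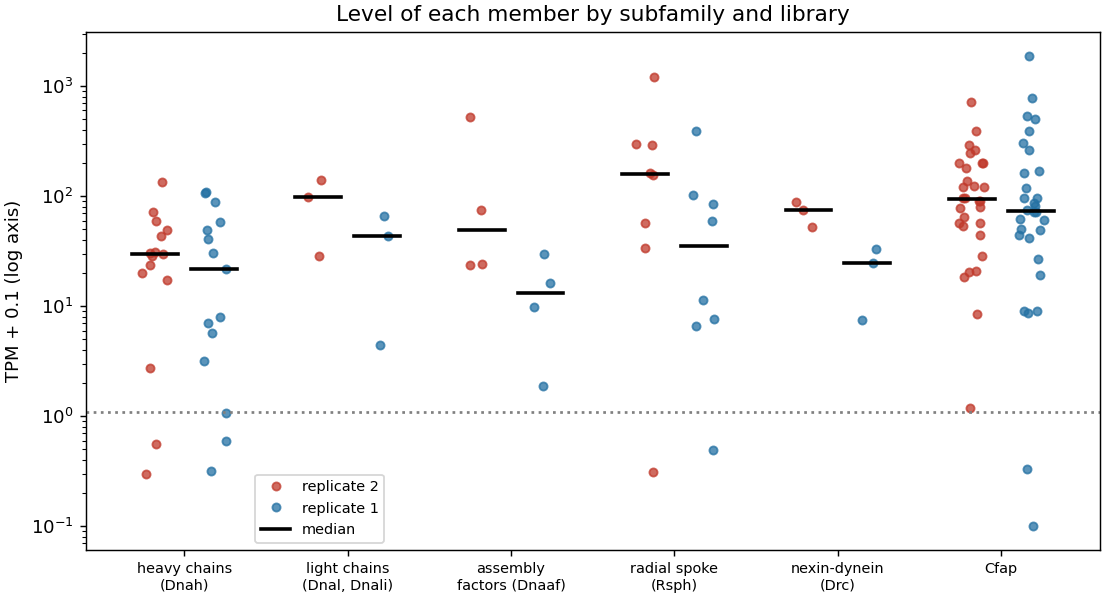
Level of each of the 63 members (TPM + 0.1, log axis) by subfamily, with replicate 2 left of replicate 1 in each pair of columns, 1 point per gene and a bar at the median. The dotted line marks the detection limit of 1 TPM. Most points lie well above it, and the radial spoke median is 158 TPM in replicate 2 and 35.4 TPM in replicate 1.

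The heavy chains are the largest proteins of the set, and their length separates reads from level. The 15 genes made up 0.0539% of the summed TPM of replicate 2 and 0.0528% of that of replicate 1, but 0.361% of the counts of replicate 2 and 0.302% of those of replicate 1. A heavy chain gene took on average 139 reads for each TPM in replicate 2 and 183 reads in replicate 1. A radial spoke gene took 17.3 reads for each TPM in replicate 2 and 27.9 reads in replicate 1. All levels compared between genes below are therefore TPM.

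Among outer arm heavy chains, a pair of genes carried nearly all of the transcript. Dnah8 (chromosome 17, plus strand, 30624354 to 30877365 on mm10), the gamma-type heavy chain of the sperm outer arm, stood at 132.86 TPM in replicate 2 and 105.55 TPM in replicate 1, a mean of 119 ± 19.3 TPM (SD, n = 2 technical libraries). It was the highest heavy chain in replicate 2 and lay just under Dnah12 in replicate 1. It held 35.1% of all heavy chain reads in replicate 2 and 34.1% in replicate 1. Dnah17 (chromosome 11, minus strand, 118021723 to 118130634), the beta-type heavy chain of the sperm outer arm, had 70.98 TPM in replicate 2 and 7.89 TPM in replicate 1. Dnah8 was thus 1.87 times Dnah17 in replicate 2 and 13.4 times Dnah17 in replicate 1, so the ratio of these partners depended on the library.

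The outer arm chains of motile cilia were scarce. Dnah5, the ciliary counterpart of Dnah8, had 0.46 TPM from 98 reads in replicate 2 (95% interval 79.6 to 119 reads) and 0.50 TPM from 168 reads in replicate 1 (144 to 195 reads). Dnah11, a beta-type chain of ciliary outer arms, had 0.20 TPM from 26 reads in replicate 2 and 0.22 TPM from 43 reads in replicate 1. Dnah9, the other ciliary beta-type chain, had 2.64 TPM in replicate 2 and 0.97 TPM in replicate 1, and only 0.24 TPM in replicate 2 and 0.25 TPM in replicate 1 fell on its transcript of 10000 bases or more. Dnah5 and Dnah11 were below 1 TPM in both libraries, and Dnah9 in replicate 1.

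Ratios within a library set sperm and ciliary relatives side by side. Dnah8 was 289 times Dnah5 in replicate 2 and 211 times Dnah5 in replicate 1. Dnah17 was 26.9 times Dnah9 in replicate 2 and 8.13 times in replicate 1, and it was 355 times Dnah11 in replicate 2 and 35.9 times in replicate 1. Rsph6a, the radial spoke head gene of sperm, was 765 times its ciliary relative Rsph4a in replicate 2 and 19.3 times in replicate 1. For each of these 4 pairs the exact (Clopper-Pearson) 95% interval excluded a ratio of 1 on the same side in both libraries. Over protein-coding transcripts only, Dnah17 was 858 times Dnah11 in replicate 2 and 73.8 times in replicate 1. Rsph6a was then 751 times Rsph4a in replicate 2 and 68.5 times in replicate 1. These ratios have no interval and rest on few reads of the lower gene. Protein-coding transcripts of Dnah11 held 13.25 reads in replicate 2 and 25.72 in replicate 1, and those of Rsph4a 10 and 8.57. The intervals of the ratios over all transcripts cover counting error only. The 2 libraries' intervals overlapped for Dnah8 over Dnah5 and did not overlap for the other 3 pairs.

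**Figure D2:**
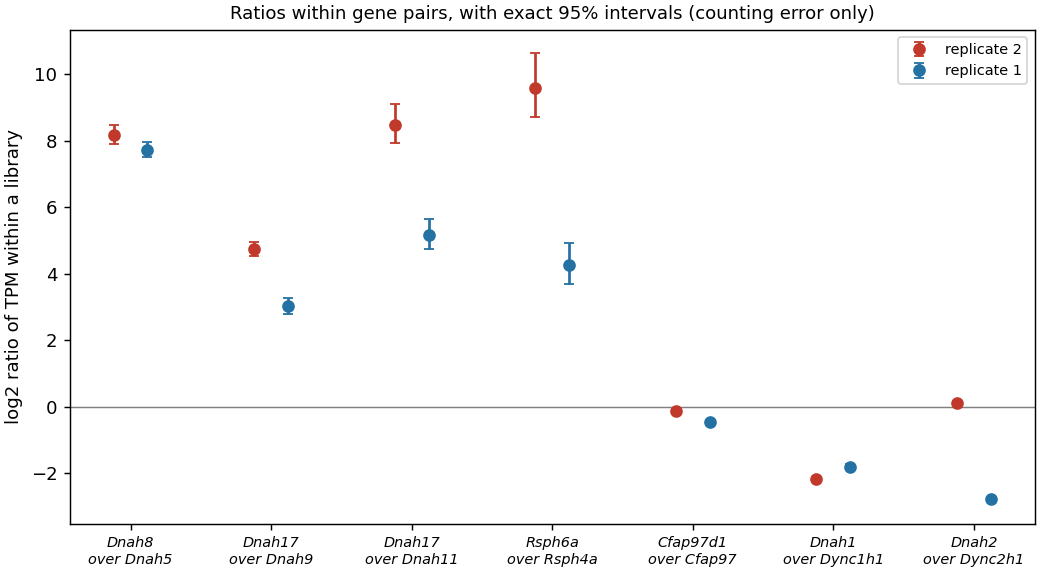
Log2 ratio of TPM within a library for 7 gene pairs, replicate 2 left of replicate 1, with exact 95% intervals that cover counting error only. The ratio of Dnah8 over Dnah5 is 8.17 in replicate 2 and 7.72 in replicate 1 on the log2 scale, and Dnah2 over Dync2h1 lies at 0.12 in replicate 2 and -2.78 in replicate 1.

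Inner arm heavy chains were expressed at moderate levels. Dnah2 and Dnah10, which pair in the double-headed inner arm f, were both higher in replicate 2, and so was the single-headed Dnah1. Dnah2 had 29.54 TPM in replicate 2 and 6.90 TPM in replicate 1, and Dnah10 had 17.30 TPM in replicate 2 and 3.05 TPM in replicate 1. Dnah2 was higher than Dnah10 in both libraries. Dnah1, a single-headed chain needed for sperm motility in mouse, had 31.08 TPM in replicate 2 and 5.59 TPM in replicate 1. Dnah3 and Dnah6, also single-headed, were the steadiest of the inner arm chains. Dnah3 had 28.44 TPM in replicate 2 and 30.03 TPM in replicate 1, and Dnah6 had 19.84 TPM in replicate 2 and 21.57 TPM in replicate 1.

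The cytoplasmic dyneins give a scale for these motors. Dnah1 was 0.222 times Dync1h1, the heavy chain of cytoplasmic dynein used across cells, in replicate 2 and 0.287 times in replicate 1, and both intervals lay below 1. Over protein-coding transcripts the ratio was 0.353 in replicate 2 and 0.289 in replicate 1, so which library had the higher ratio depended on the transcripts counted. Dnah2 was 1.09 times Dync2h1, the heavy chain of the dynein that returns cargo along the growing tail, in replicate 2 and 0.146 times in replicate 1. The second ratio changed side between the libraries, so that pair was not called.

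Mouse has 3 Dnah7 genes, all on chromosome 1, of which Dnah7b and Dnah7c lie 52046 bases apart on the plus strand. Dnah7b had 59.79 TPM in replicate 2 and 88.38 TPM in replicate 1, Dnah7a had 43.49 TPM in replicate 2 and 57.65 TPM in replicate 1, and Dnah7c had 23.42 TPM in replicate 2 and 40.87 TPM in replicate 1. The order changed once short transcripts were left out. Over transcripts of 10000 bases or more, Dnah7a had 16.46 TPM in replicate 2 and 26.78 TPM in replicate 1, Dnah7b had 24.27 TPM in replicate 2 and 43.14 TPM in replicate 1, and Dnah7c had 23.15 TPM in replicate 2 and 39.87 TPM in replicate 1. Dnah7b and Dnah7c were then close to each other in both libraries, and Dnah7a was the lowest. The 3 copies are near-identical in places and their reads were divided between them by estimation. The posterior SD of these counts in the authors' tables was 0.36% to 0.44% of the count in replicate 2 and 0.19% to 0.26% in replicate 1.

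Dnah12 and Dnah14 are carried by shorter models in the annotation the authors used. Dnah12 had 48.64 TPM in replicate 2 and 109.08 TPM in replicate 1, with a longest transcript of 7005 bases. Dnah14 had 30.37 TPM in replicate 2 and 49.38 TPM in replicate 1, with a longest transcript of 1986 bases and none annotated as protein-coding under this gene. The newer annotation also gives the name Dnah14 to transcripts counted here under other gene entries, which that level leaves out. The highest of these in both libraries, a protein-coding transcript of 400 bases, had 32.63 TPM in replicate 2 and 10.78 TPM in replicate 1. Neither the level of Dnah12 nor that of Dnah14 can be read as that of a full-length motor.

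**Figure D3:**
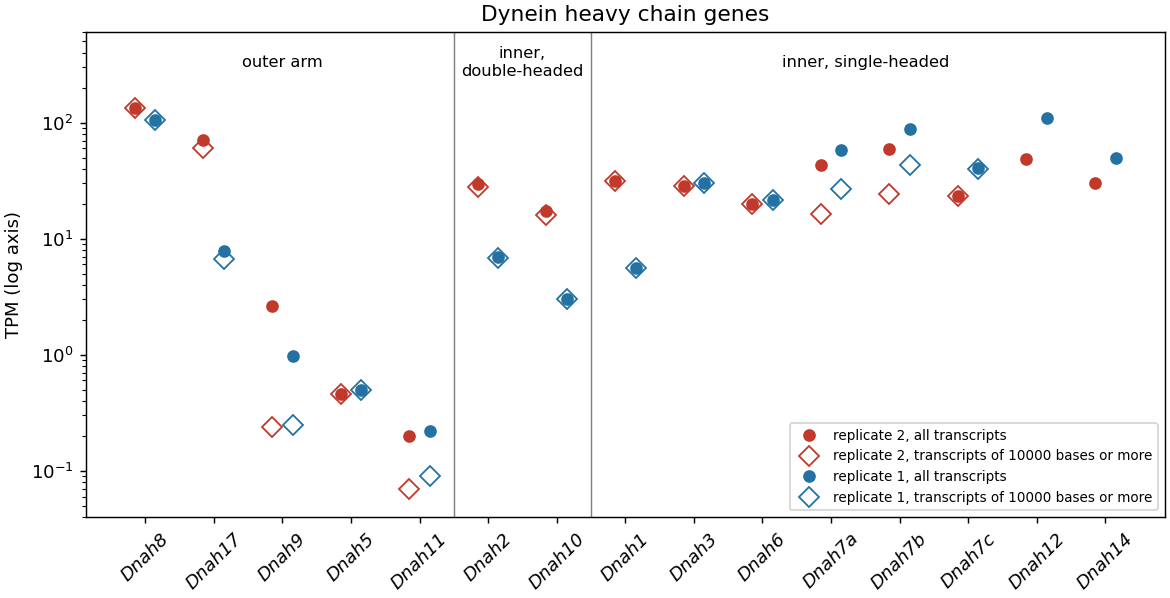
TPM (log axis) of the 15 heavy chain genes grouped by arm, replicate 2 left of replicate 1. Filled circles sum all transcripts and open diamonds sum transcripts of 10000 bases or more. Dnah8 is at 132.86 TPM in replicate 2 and 105.55 TPM in replicate 1, Dnah5 and Dnah11 stay below 1 TPM in both, and Dnah12 and Dnah14 have no diamond.

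The light chains and assembly factors were all detected. Dnali1, an inner arm light chain, had 139.75 TPM in replicate 2 and 43.26 TPM in replicate 1. Dnal4, a small light chain of the outer arm, had 97.32 TPM in replicate 2 and 4.31 TPM in replicate 1. Dnal1, which binds the motor domain of an outer arm chain, went the other way, with 28.60 TPM in replicate 2 and 65.55 TPM in replicate 1. The assembly factor Dnaaf1 was by far the most abundant of its group in replicate 2, with 525.65 TPM there and 29.91 TPM in replicate 1. Dnaaf3 had 73.96 TPM in replicate 2 and 1.77 TPM in replicate 1. Dnaaf2 and Dnaaf5 were closer, with Dnaaf2 at 23.81 TPM in replicate 2 and 16.22 TPM in replicate 1, and Dnaaf5 at 23.61 TPM in replicate 2 and 9.68 TPM in replicate 1. A pair of Cfap genes also serves arm assembly. Cfap298 had 245.02 TPM in replicate 2 and 70.97 TPM in replicate 1, and Cfap300 had 57.06 TPM in replicate 2 and 117.49 TPM in replicate 1.

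Radial spoke genes included the most abundant member of replicate 2. Rsph1, a spoke head protein, had 1202.79 TPM in replicate 2 and 387.77 TPM in replicate 1. Rsph3a and Rsph3b, close copies on chromosome 17 that encode a spoke stalk protein, had similar levels within each library. Rsph3a had 292.97 TPM in replicate 2 and 102.96 TPM in replicate 1, and Rsph3b had 295.57 TPM in replicate 2 and 83.93 TPM in replicate 1. They share reads, and the posterior SD of the Rsph3b count in the authors' tables was 1.48% of the count in replicate 2 and 1.92% in replicate 1. Rsph6a had 160.69 TPM in replicate 2 and 7.53 TPM in replicate 1, and Rsph9, another head protein, had 155.31 TPM in replicate 2 and 11.26 TPM in replicate 1. Rsph10b had 56.78 TPM in replicate 2 and 59.59 TPM in replicate 1, and Rsph14 had 33.75 TPM in replicate 2 and 6.45 TPM in replicate 1. Rsph4a had 0.21 TPM from 10 reads in replicate 2 and 0.39 TPM from 26 reads in replicate 1, the only radial spoke gene below 1 TPM in either library.

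The 3 genes of the nexin-dynein regulatory complex were expressed at similar levels within replicate 2. Drc3 had 88.09 TPM in replicate 2 and 33.07 TPM in replicate 1. Drc1, needed to assemble the complex, had 73.92 TPM in replicate 2 and 24.71 TPM in replicate 1. Drc7 had 52.14 TPM in replicate 2 and 7.43 TPM in replicate 1. They kept the order Drc3, Drc1, Drc7 in both libraries.

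Cfap genes of the doublet wall and lumen were detected in every case, 7 of 7, with a median of 96.8 TPM in replicate 2 and 85.8 TPM in replicate 1. Cfap126 had 262.89 TPM in replicate 2 and 85.82 TPM in replicate 1. Cfap45, which lies inside the doublet, had 201.16 TPM in replicate 2 and 163.58 TPM in replicate 1. In replicate 1, transcripts of 343 and 426 bases held 58.8% and 23.1% of Cfap45, and both were at 0 in replicate 2. The Cfap45 transcript of 1908 bases had 186 TPM in replicate 2 and 28.8 TPM in replicate 1. Over all transcripts, the counts of Cfap45 had a log2 ratio of 1.80, and of 0.15 against genes of like GC content. Cfap161 had 120.10 TPM in replicate 2 and 96.79 TPM in replicate 1. Its counts had a log2 ratio of 0.01 between the libraries (adjusted p = 0.931, exact binomial test with Benjamini-Hochberg adjustment), which became 0.30 with plain totals and 0.13 against genes of like GC content (adjusted p = 0.0060, same test). Cfap53 had 90.94 TPM in replicate 2 and 95.33 TPM in replicate 1. Cfap77 was the lowest of these genes, with 20.44 TPM in replicate 2 and 8.87 TPM in replicate 1.

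Cfap genes of the central apparatus had a median of 40.7 TPM in replicate 2 and 34.5 TPM in replicate 1, and all 6 were detected. Cfap69 stood far above the rest with 288.53 TPM in replicate 2 and 497.53 TPM in replicate 1. Cfap65 had 121.13 TPM in replicate 2 and 41.93 TPM in replicate 1. The large proteins Cfap54 and Cfap46, parts of one projection of the central pair, were low. Cfap54 had 18.13 TPM in replicate 2 and 27.00 TPM in replicate 1, and Cfap46 had 20.87 TPM in replicate 2 and 8.93 TPM in replicate 1.

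Of the Cfap genes that anchor arms and spokes, Cfap206, a dock for a radial spoke, was the most abundant. It had 711.72 TPM in replicate 2 and 1884.86 TPM in replicate 1, a mean of 1298 ± 830 TPM (SD, n = 2 technical libraries). This was the highest mean of all 63 members over all transcripts, but over protein-coding transcripts Cfap206 averaged 581 TPM, below Rsph1 at 795 TPM and Cfap36 at 586 TPM. Cfap43 and Cfap44, partners in the tether of inner arm f, differed from each other within both libraries. Cfap43 had 199.93 TPM in replicate 2 and 300.94 TPM in replicate 1 as deposited. The entry includes a transcript that the newer annotation names Itprip-201, after another gene, and without it Cfap43 had 169 TPM in replicate 2 and 299 TPM in replicate 1. Cfap44 had 44.57 TPM in replicate 2 and 60.69 TPM in replicate 1. Cfap70 had 136.60 TPM in replicate 2 and 264.16 TPM in replicate 1. Cfap73 and Cfap100 work as partners beside the inner arms. Cfap100 had 63.98 TPM in replicate 2 and 62.40 TPM in replicate 1 over all transcripts. Over protein-coding transcripts it had 57.1 TPM in replicate 2 and 13.4 TPM in replicate 1. Its counts, 1175 in replicate 2 and 597 in replicate 1, had a log2 ratio of 1.31 and were called higher in replicate 2. Against genes of like GC content that ratio was 0.57 and was not called. Cfap73 had 86 reads and 8.47 TPM in replicate 2 and no read in replicate 1. Taken against a floor of 3 reads per library and scaled for library size, the 86 reads of Cfap73 stood 36.2-fold higher in replicate 2. This value is not a lower bound and depends on that floor. The exact two-sided 95% interval of a count of 0 reaches 3.69 reads, and that of 86 reads starts at 68.8.

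Other Cfap genes included several of the most abundant members. Cfap36 had 390.93 TPM in replicate 2 and 785.17 TPM in replicate 1. Cfap97 had 198.29 TPM in replicate 2 and 538.49 TPM in replicate 1, and its relative Cfap97d1, needed for the sperm axoneme in mouse, had 179.20 TPM in replicate 2 and 394.43 TPM in replicate 1. Cfap97d1 was 0.904 times Cfap97 in replicate 2 and 0.732 times in replicate 1, with both intervals below 1. A further relative, Cfap97d2, had 1.09 TPM from 9 reads in replicate 2 and 0.23 TPM from 3 reads in replicate 1. Cfap157 had 80.34 TPM in replicate 2 and 8.65 TPM in replicate 1. Among the 10 most abundant members of each library, summed over all transcripts, 5 genes were shared. They were Cfap206, Cfap36, Cfap45, Cfap69 and Rsph1, which is 50% of each list.

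Which transcript of a gene was counted mattered for several members. Of the 57 detected members, 43 (75.4%) were led by the same transcript in each library, against 75.3% of all detected protein-coding genes. In 38 of the 57, at least 90% of the TPM fell on protein-coding transcripts in both libraries. In 4 members of replicate 2 and 8 members of replicate 1 that share was below 50%. No share of all detected protein-coding genes is given beside these limits, so the counts describe the members only. Cfap206 was the clearest case. A processed transcript of 690 bases took 69.4% of its level in replicate 1, whereas a protein-coding transcript of 2246 bases took 72.8% in replicate 2. Its protein-coding level was 618 TPM in replicate 2 and 544 TPM in replicate 1, much closer than the sums over all transcripts.

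Cfap70 and Cfap65 showed the same pattern with retained introns. In replicate 1, a retained-intron transcript of 409 bases held 57.6% of Cfap70 and one of 3947 bases held 63.1% of Cfap65. The protein-coding level of Cfap70 was 109 TPM in replicate 2 and 73.7 TPM in replicate 1, and that of Cfap65 was 95.8 TPM in replicate 2 and 15.4 TPM in replicate 1. In Cfap100 a transcript of 461 bases, absent from the newer annotation, held 78.2% in replicate 1. The transcript shares are the authors' estimates.

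**Figure D4:**
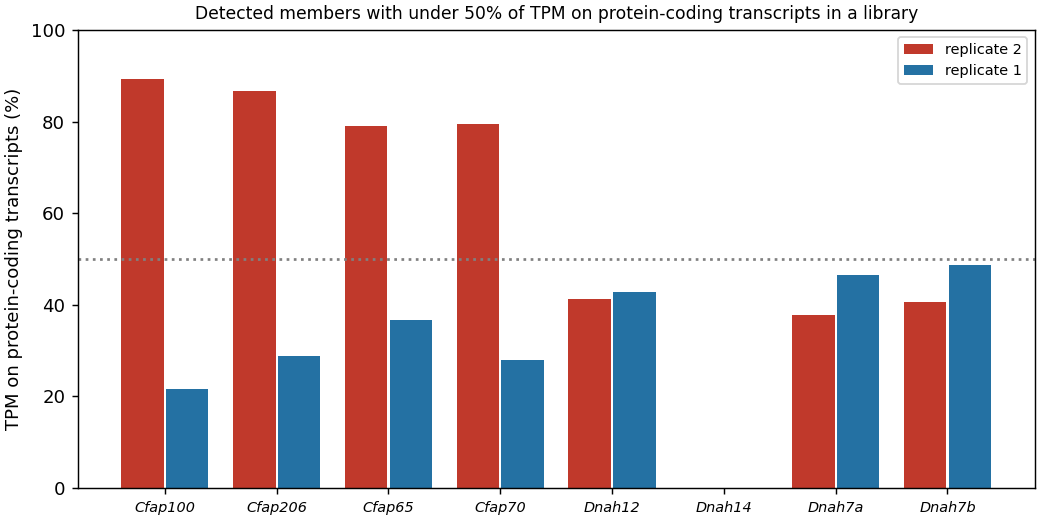
Share of TPM on protein-coding transcripts (%) for the 8 detected members in which it was below 50% in at least 1 library, replicate 2 left of replicate 1. Cfap206 is at 86.8% in replicate 2 and 28.9% in replicate 1, and Dnah14 has no bar because its share is 0 in both.

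The libraries were compared gene by gene with an exact two-sided binomial test. Calls required a ratio of at least 2 and an adjusted p below 0.05. Of the 62 members with a mean of 10 counts or more, 27 were higher in replicate 2, against a background of 32.1% of all 18581 genes tested, and 9 were lower, against 23.7%. The other 26 were not called. The median log2 ratio of the members was 0.27, beside a median of -0.004 over all genes tested. These shares describe the 2 libraries, not a condition.

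By role, beside the same background of 32.1%, all 3 Drc genes, 6 of 8 radial spoke genes, 2 of 3 light chains and 2 of 4 assembly factors were called higher in replicate 2, and none was called lower. Against genes of like GC content, with a background of 10.9% higher and 8.81% lower, 0 of 3 Drc genes, 2 of 8 radial spoke genes, 1 of 3 light chains and 1 of 4 assembly factors were called higher, and 2 assembly factors were called lower. Rsph1 and Rsph3a then had negative log2 ratios of -0.17 and -0.30. Of the 15 heavy chains, Dnah17, Dnah1, Dnah2 and Dnah10 were called higher in replicate 2, and Dnah12, Dnah7b and Dnah7c were called lower, but none of these 7 was called against genes of like GC content. The largest log2 ratios among members with a mean of 100 counts or more were 5.06 for Dnaaf3, 4.51 for Rsph6a, 4.49 for Dnal4, 3.81 for Dnaaf1 and 3.49 for Rsph9. The lowest were -1.502 for Dnah12, -1.49 for Cfap97d1, -1.39 for Cfap69, -1.38 for Cfap97 and -1.36 for Cfap300. Dnah8 had a log2 ratio of 0.01 (adjusted p = 0.617, exact binomial test with Benjamini-Hochberg adjustment), which became 0.30 with plain totals and 0.13 against genes of like GC content (adjusted p = 6.1e-27, same test).

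These ratios followed the GC content of the transcript. Across the 62 members the log2 ratio had a Pearson r of 0.851 and a Spearman rho of 0.929 with transcript GC content. Across all genes tested r was 0.821 and rho 0.885. Genes share the libraries and are not independent replicates, so these values are descriptions. The GC content is that of the most abundant transcript found in the newer annotation. This leaves out the leading transcript of Dnah12, and that of Cfap100 in replicate 1. For Dnah7a and Dnah7b that transcript has 732 and 740 bases. Transcripts of 10000 bases or more held 93.0% and 93.3% of the reads of these 2 genes in replicate 2, and 95.1% and 94.8% in replicate 1. For Cfap206 the GC content is that of a processed transcript of 690 bases. It held 12.4 of 16338 reads in replicate 2 and 14255 of 32056 in replicate 1. For Cfap70 it is that of a retained-intron transcript of 409 bases, with 41.75 of 5297 reads in replicate 2 and 734 of 6842 in replicate 1. Of the 12 members under 45% GC, 8 were called lower in replicate 2 and none higher. Of all genes of that range, 70.9% were called lower and 0.6% higher. The members' median log2 ratio was -1.23, beside -1.31 for all genes of that range. Of the 13 members of 54% GC or more, 11 were called higher and none lower, beside 89.1% and 0.41% of all genes of that range. The members' median was 3.42, beside 2.91 for all genes of that range. Of the 18 members from 50% to 54% GC, 14 were called higher and none lower, beside 41.4% and 1.8% of all genes of that range. The members' median was 1.35, beside 0.80 for all genes of that range. Of the 19 members between 45% and 50% GC, 2 were called higher and 1 lower, beside 4.6% and 14.4% of all genes there. The members' median was -0.40, the same as that of all genes there. The part that GC content had in each difference was not tested.

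Over all subfamilies, 8 members were called higher in replicate 2 against genes of like GC content, beside a background of 10.9% of 18516 genes, and 2 were called lower, against 8.81%. The 8 were Cfap126, Cfap157, Cfap52, Cfap73, Dnaaf3, Dnal4, Rsph14 and Rsph9, all of them also called before the correction. The 2 were Dnaaf2 and Dnaaf5, which were not called before it. After the correction, Dnah17 had a log2 ratio of 0.59 and Rsph6a one of 0.34, and neither was called. Of the 6 elongating spermatid markers, 4 were called higher in replicate 2 and 2, Prm2 and Tnp1, against genes of like GC content. Their sum was led by Prm2, with 15928 TPM in replicate 2 and 45.4 TPM in replicate 1, while Smcp had 3821 TPM in replicate 2 and 3836 TPM in replicate 1. The part of these markers in the members' differences was not tested.

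**Figure D5:**
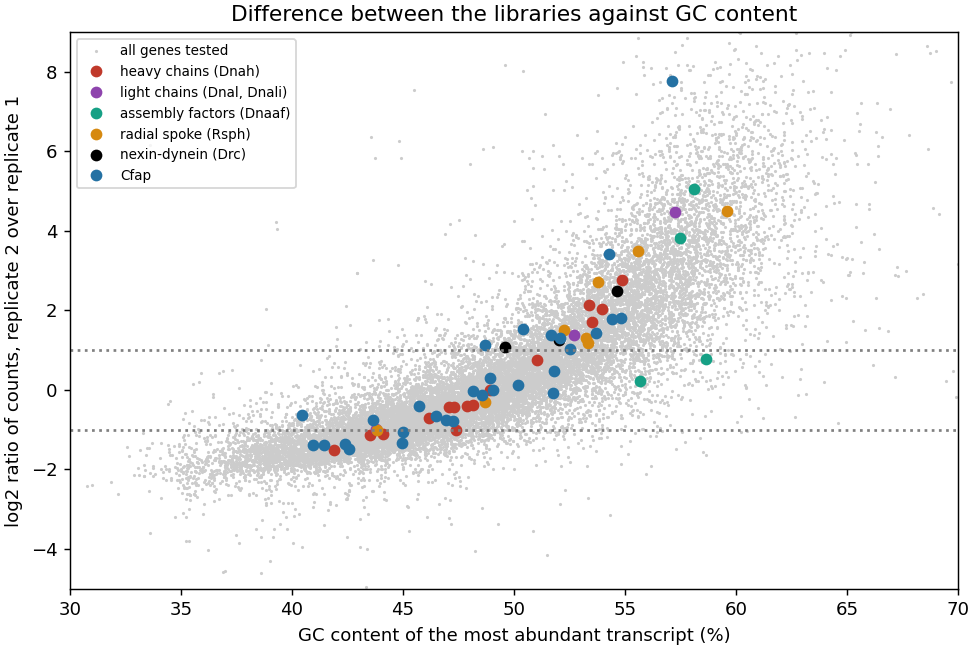
Log2 ratio of counts, replicate 2 over replicate 1, against the GC content (%) of the most abundant transcript found in the newer annotation. Members are coloured by subfamily over all genes tested in grey. The dotted lines mark a 2-fold difference either way. The members run along the grey band, with a Pearson r of 0.851 over 62 members, and the value of Cfap73 rests on no read in replicate 1.

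A second list of axonemal genes outside the naming rule, with intermediate chains, docking proteins, spoke and central pair proteins and tektins, held 55 genes found in the tables. All 55 were detected in both libraries. Their median level was 121 TPM in replicate 2 and 62.7 TPM in replicate 1, above the 71.0 TPM of the members in replicate 2 and their 44.5 TPM in replicate 1. Ropn1l, a fibrous sheath and spoke protein, had 1619 TPM in replicate 2 and 732 TPM in replicate 1, and Ropn1, its relative, had 710 TPM in replicate 2 and 441 TPM in replicate 1. Enkur had 209 TPM in replicate 2 and 526 TPM in replicate 1, and Nme5, a spoke protein, had 247 TPM in replicate 2 and 457 TPM in replicate 1. In the comparison of libraries 19 of the 55 were called higher in replicate 2 and 13 lower, beside the same background of 32.1% and 23.7%. Against genes of like GC content, 6 were called higher and 3 lower, beside 10.9% and 8.81%.

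The members are spread over 17 chromosomes, with 8 on chromosome 1, 7 on chromosome 11 and none on the X chromosome. Cfap43 and Cfap58 are neighbours on chromosome 19, with 18388 bases between them, and are annotated on opposite strands. Without the Itprip-201 transcript, Cfap43 had 169 TPM in replicate 2 and 299 TPM in replicate 1, and Cfap58 had 77.81 TPM in replicate 2 and 50.09 TPM in replicate 1.

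Promoter windows, 250 bases before to 50 bases after a start site, came from RefSeq on GRCm38.p6 for 51 members, with 55 windows. They were searched on both strands for the X-box, the site bound by RFX factors, which regulate many cilium genes. It was taken as GTTGCC and GGCAAC with 2 bases between them (AT), 14 positions in all, with at most 3 mismatches. Such a match lay in 15 of 55 member windows (27.3%), against 3.37% of 32851 windows of all genes. GTTGCC alone, which overlaps the X-box, lay in 34.5% of member windows and 12.5% of all windows. The cAMP response element TGACGTCA, bound by CREM in spermatids, lay in 1.82% of member windows and 1.79% of all windows, and its core TGACGT, which overlaps it, in 1.82% and 7.51%. The median GC content was 55.3% in member windows and 52.7% in all windows, and its part in these shares was not tested.

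The X-box matches were unevenly placed among subfamilies. They lay in 13 of 23 Cfap genes with a window, and in Dnaaf2 and Drc1. None lay in the 14 heavy chain, 5 radial spoke or 3 light chain genes with a window. Only a spacing of 2 bases was searched, so this uneven placing is stated for that spacing alone. The Dnah6 window, printed below, holds gttgctaagcaac, a similar sequence with 1 base between its parts, which the search could not score. Placing under other spacings was not tested. A match is a description of these letters, not evidence of binding. The 7 windows with at most 2 mismatches are shown because they are the closest matches, with 8 bases on each side, the match in capitals and the strand of the gene.
Cfap44 (chr16:44394764-44394793, plus strand): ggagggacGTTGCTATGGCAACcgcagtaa
Cfap97d2 (chr8:13705854-13705883, plus strand): aaggcctgGGTGCCATGGCAACcgtcacat
Cfap45 (chr1:172521103-172521132, plus strand): gttcttggGTTGCTATGGTAACgcgtcagc
Cfap161 (chr7:83794865-83794894, minus strand): actgcctgGTCGTCATGGCAACgaagcacg
Cfap221 (chr1:119997219-119997248, minus strand): gcgtccgcGTTGTCATGGCGACgctgtgag
Cfap298 (chr16:90935016-90935045, minus strand): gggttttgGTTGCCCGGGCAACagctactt
Dnaaf2 (chr12:69198425-69198454, minus strand): tcccaggcGTTACTATGGCAACaaagcacg
Cfap44 and Cfap97d2 differ from the full motif at 1 position and the others at 2. Their genes ranged in level from Cfap97d2, with 1.09 TPM in replicate 2 and 0.23 TPM in replicate 1, to Cfap298, with 245 TPM in replicate 2 and 71.0 TPM in replicate 1. The median level of the 15 genes with a match was 90.8 TPM in replicate 2 and 71.0 TPM in replicate 1. The 36 genes with a window and no match had a median of 55.0 TPM in replicate 2 and 27.3 TPM in replicate 1. Of the 15 genes with a match 13 were Cfap genes, a subfamily with medians of 93.8 TPM in replicate 2 and 73.4 TPM in replicate 1. The genes without one included 14 heavy chains, a subfamily with medians of 29.5 and 21.6 TPM. The part of subfamily in this difference was not tested.

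Whole windows are shown for Cfap44, which has a closest match, for Dnah6, the 1 member with the cAMP response element, and for Dnah8 and Dnah17, the outer arm chains of highest level, which hold none of the motifs searched. Capitals mark the X-box, GTTGCC or GGCAAC, and TGACGTCA.
Cfap44 (chr16:44394549-44394848, plus strand): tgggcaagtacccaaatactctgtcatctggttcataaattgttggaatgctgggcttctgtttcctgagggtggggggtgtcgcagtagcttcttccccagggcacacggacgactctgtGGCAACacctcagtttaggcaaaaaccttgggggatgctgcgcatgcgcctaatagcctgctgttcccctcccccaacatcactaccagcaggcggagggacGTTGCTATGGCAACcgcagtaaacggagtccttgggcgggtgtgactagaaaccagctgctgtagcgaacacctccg
Dnah6 (chr6:73221582-73221881, minus strand): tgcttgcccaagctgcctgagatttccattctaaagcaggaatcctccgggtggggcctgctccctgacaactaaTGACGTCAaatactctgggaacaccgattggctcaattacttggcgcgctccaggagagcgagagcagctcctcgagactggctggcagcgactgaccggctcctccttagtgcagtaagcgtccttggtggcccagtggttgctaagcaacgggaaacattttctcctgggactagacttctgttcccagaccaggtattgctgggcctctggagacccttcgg
Dnah8 (chr17:30626686-30626985, plus strand): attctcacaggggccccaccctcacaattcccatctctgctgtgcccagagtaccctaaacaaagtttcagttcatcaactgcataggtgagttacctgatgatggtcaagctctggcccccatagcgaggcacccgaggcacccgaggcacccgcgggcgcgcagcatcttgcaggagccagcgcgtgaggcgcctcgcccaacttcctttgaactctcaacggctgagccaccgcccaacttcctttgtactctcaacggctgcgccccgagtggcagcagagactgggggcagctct
Dnah17 (chr11:118129170-118129469, minus strand): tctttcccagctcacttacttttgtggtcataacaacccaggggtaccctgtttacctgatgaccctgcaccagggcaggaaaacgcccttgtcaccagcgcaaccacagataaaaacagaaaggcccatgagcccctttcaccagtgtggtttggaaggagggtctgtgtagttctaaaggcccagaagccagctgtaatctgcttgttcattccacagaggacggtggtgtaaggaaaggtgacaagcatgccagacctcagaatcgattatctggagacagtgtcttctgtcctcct
The RefSeq starts of Dnah8 and Dnah17 lie inside these genes as GENCODE draws them, so both windows lie downstream of the GENCODE gene starts, whose own promoters were not searched. Dnah8 and Dnah17 reached 132.86 and 70.98 TPM in replicate 2, and 105.55 and 7.89 TPM in replicate 1,. No match in these windows says only that these letters are not in them.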

How the data were processed

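Polyadenylated RNA of 1 testis was measured in 2 technical replicate libraries. Per the deposited notes, the authors quantified genes and transcripts from transcriptome alignments on mm10 with annotation M4. The aligner, the quantification program and the use of strand in counting were not given in the sources used here. Values deposited by the authors and used here were expected counts (estimated reads, not always whole), TPM, FPKM (fragments scaled for length and depth) and, for transcripts, the percent of the gene's level that each one holds. Reads that fit near-identical genes were divided between them in these estimates. The total was 20675521 counts in replicate 2 and 31995370 in replicate 1.

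Gene names, biotypes and coordinates were taken from GENCODE M21 (GRCm38, the mm10 assembly) by unversioned identifier. Expected counts were rounded. With 1 library on each side no dispersion can be estimated, so edgeR's quasi-likelihood test was not fitted. Counts were compared by an exact two-sided conditional binomial test with TMM sizes (edgeR 4.0.16, factors 1.11 for replicate 2 and 0.904 for replicate 1), adjusted by Benjamini-Hochberg over the 18581 genes averaging at least 10 counts, with 0.5 added to counts for log2 ratios. The test compares the reads of these 2 libraries, and p-values measure no spread between animals. For the GC correction, each gene's expected log2 ratio was the median of genes of like transcript GC content in 100 bins. The GC content was that of the gene's transcript of highest TPM over both libraries among those in GENCODE M21. The test was tested on simulated data. Intervals of ratios are exact (Clopper-Pearson, 95%), and intervals of read counts are exact Poisson intervals (95%). Both cover counting error only, as PCR copies cannot be told from separate molecules here.

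The members, lists, pairs and motifs were chosen with earlier results of these data known. Any member could be named, and always named were all heavy chains, the 4 highest of other subfamilies, all pairs, the 5 largest ratios in each direction and members under 1 TPM. Alternatives covered detection limits, units, each library alone, plain totals, DESeq2 1.42.0 size factors, other filters and ratio limits, an edgeR exact test with an assumed coefficient of variation of 0.1, and protein-coding transcripts only. Other software was Python 3.11.15 with scipy 1.17.1, pandas 2.3.3, numpy 2.4.6 and matplotlib 3.10.9, and R 4.3.3.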

Additional observations from a re-analysis of the deposited data

Results flagged for a closer look

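Dnah2os, an antisense gene at chromosome 11, 69448548 to 69453676 on mm10, fits the naming rule but is not protein-coding and stands outside the comparisons. It had 5 reads (0.54 TPM) in replicate 2 and 0 reads in replicate 1, where the floor for a count of 0 is taken as 3 reads. It lies within Dnah2, and since the use of strand in counting is not stated, reads of Dnah2 and of its antisense gene cannot be told apart.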

How the results depend on the processing

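No paired analysis was possible because both libraries are technical replicates of 1 group from 1 animal. The count of detected members stayed within 1.5 times of 57 under every alternative tried. With protein-coding transcripts only, an alternative chosen after seeing the data, the median member lay at percentile 84.9, against 86.8 with all transcripts. With either library alone, the heavy chain median ranged from 21.6 to 29.5 TPM and the light chain median from 43.3 to 97.3 TPM. Over the 41 members with 2 or more transcripts, 27 had the same most abundant transcript. The log2 ratio of Dnah2 over Dync2h1 ranged from -2.78 to 0.12 with either library alone. Members called higher in replicate 2 numbered 12 at a ratio limit of 4 and 8 after GC correction, against 27. Those called lower numbered 17 at a limit of 1.5, 0 at a limit of 4 and 2 after GC correction, against 9. Of all genes tested, 32.1% were called higher and 23.7% lower at the main setting, and 10.9% and 8.81% after GC correction. Such shares are not given here for the other limits or for plain totals. Counts under those settings therefore do not set the members apart from other genes. Among members called with or without GC correction, the correction turned the sign of 8 and brought Dnah7b to 0, with log2 ratios of -2.16 for Dnaaf2, -3.02 for Dnaaf5, -0.37 for Cfap298, -0.17 for Rsph1, -0.30 for Rsph3a, -0.0364 for Cfap46, -0.0058 for Cfap65, 0.0401 for Cfap97 and 0.00 for Dnah7b. Another 11 members, not called either way, also left their side of 0 under it. Leaving Itprip-201 out of Cfap43, also chosen after seeing the data, gave a log2 ratio of -0.997 against -0.75, not called either way. Plain totals in place of TMM shifted every log2 ratio by 0.29 and turned the sign of Cfap20, Cfap61 and Cfap70, none of them called. They gave 29 higher and 6 lower calls, ended the lower calls of Dnah7b, Dnah7c and Cfap54, and added higher calls for Dnaaf5 and Dnah9. The cause of the changes under GC correction was not tested. Depth limits Cfap97d2, Rsph4a and Dnah11, which had at most 43 reads in a library.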
